A study of Mus musculus with 11 samples.

Results

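The GADD45 genes and the stress MAP kinase genes around them were followed in RNA of sorted mouse B cells. The 9 genes, taken by symbol and Ensembl identifier out of 48795 genes in the table of TPM (transcript abundance per length, scaled to the same total in every library), were Gadd45a, Gadd45b, Gadd45g, the kinase genes Map3k4, Map2k4 and Map2k7, and the MAP kinase genes Mapk8, Mapk9 and Mapk14. All 9 averaged 1 TPM or more in each comparison and were tested. The groups were light zone (LZ) germinal center B cells of 4 Myc WT mice, here mice 1 to 4, LZ B cells of 4 Myc V394D mice, here mice 5 to 8, and memory B cells (MBCs) of the Myc WT mice 1, 3 and 4. Every mouse was a female of 8 to 12 weeks whose spleen was taken 10 days after intravenous immunization with sheep red blood cells. LZ B cells were sorted as B220+ CD138neg IgDneg CD38neg Fas+ and as high for CD86 and low for CXCR4, and MBCs as B220+ CD138neg IgDneg CD38+ CD273+. Myc V394D is a point mutation at the Myc gene itself, carried by all cells of the mouse, that removes the binding of MYC to MIZ1 and leaves that to MAX in place. The codes of Myc WT mice 1 to 3 begin alike, that of mouse 4 differs and those of all Myc V394D mice share a further beginning, whose meaning the labels do not give, so the effect of genotype cannot be told apart from whatever these codes stand for. The comparisons ask how LZ B cells change without MYC–MIZ1 complexes and how they differ from MBCs.

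GADD45 proteins are small acidic proteins without enzyme activity that cells make in response to stress and to cytokines. They bind and switch on MTK1, the kinase encoded by Map3k4, which phosphorylates MAP kinase kinases such as MKK4 (Map2k4) that in turn activate the JNK kinases (Mapk8 for JNK1, Mapk9 for JNK2) and p38 alpha (Mapk14). GADD45B can also bind and block MKK7 (Map2k7), the kinase dedicated to JNK, and in B cells its gene is a target of NF-κB downstream of CD40. Outside this cascade GADD45 proteins bind PCNA and the CDK1–cyclin B complex. All of this acts on proteins and their phosphorylation, whereas the values here are RNA levels.

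Of 6 memory genes, 5, among them Cd38 and Pdcd1lg2 (the gene of CD273), were higher in every MBC library than in every LZ library, and Nt5e (CD73), at 10.8 to 13.4 TPM in Myc WT LZ and 6.8 to 11.5 TPM in MBCs, was not. Their summed level was 33.6 to 37.8 TPM in Myc WT LZ, 16.9 to 39.1 TPM in Myc V394D LZ and 445 to 600.2 TPM in MBCs. Ribosomal RNA genes took 35.7 to 44.5% of the TPM in Myc WT LZ, 44.1 to 61.3% in Myc V394D LZ and 36.1 to 37.5% in MBCs, which leaves less for all other genes where they take more. The median gene differed by a log2 difference of -0.31 between Myc V394D and Myc WT LZ, of -0.14 between MBCs and Myc WT LZ and of -0.16 between Myc V394D LZ and MBCs. Among 6910 genes that averaged 10 TPM or more in Myc WT LZ, 28 to 39 were listed at 0 in a Myc WT LZ library, 46 to 99 in a Myc V394D LZ library, and 282, 446 and 56 in the MBCs of mice 1, 3 and 4. MBCs of mouse 3 had a summed level of 6713 TPM over 6 erythroid genes, against at most 53.4 TPM in the other MBCs. In LZ libraries this sum was 115.5 to 225.6 TPM in Myc WT (median 159) and 71.9 to 409.6 TPM in Myc V394D (median 347.7), where mice 5, 6 and 7 lay above every Myc WT library and mouse 8 below. MBCs of mouse 4 had 163 TPM of 6 myeloid genes and 30.1 TPM of 6 T cell genes, against 16.1 and 42.2 TPM of the myeloid and none of the T cell genes in the other MBCs. S100a8 and S100a9 were at 0 in every MBC library. LZ libraries held at most 12.4 TPM of the myeloid and 11.1 TPM of the T cell genes. The summed level of 6 dark zone genes was 241.9 to 448.6 TPM in Myc WT LZ, 181.7 to 421.3 TPM in Myc V394D LZ and 111.4 to 191.6 TPM in MBCs, and that of 4 genes of naive follicular B cells 364 to 368, 289 to 402 and 936 to 1058 TPM. The part of these RNAs in the values below was not tested.

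MBCs had less Gadd45a and Gadd45b and more Map2k4 than LZ B cells of the same genotype. Of the 9 genes, 1 was higher (Map2k4) and 2 were lower (Gadd45a and Gadd45b) in MBCs at an adjusted p under 0.05 (limma, over all genes tested), beside 4.17% higher and 5.04% lower among all 13245 genes tested. The other 6 genes had log2 differences between -0.43 and 0.78 that did not pass. These fits did not pair the libraries of a mouse. With the mouse as a replicate block Gadd45a, Gadd45b and Map2k4 did not pass, at adjusted p of 0.306, 0.0747 and 0.166 in limma. Leaving out any single Myc WT LZ library also ended the calls of Gadd45a and Map2k4. Between Myc V394D and Myc WT LZ none of the 9 passed in limma, in a comparison where 0.00777% of all 12869 genes were called higher and 0.0389% lower. Before adjustment 2 of the 9 stood below 0.05, Gadd45b and Mapk14, both with lower means in Myc V394D, beside 1.24% of all genes with higher and 15.7% with lower means. Between Myc V394D LZ and MBCs no member passed in limma, where 1.36% of 13131 genes were called higher and 2.52% lower, and before adjustment 1 of the 9 stood below 0.05 with a higher mean in Myc V394D LZ (Gadd45b) and 2 with a lower mean (Map2k4 and Mapk9), beside 7.0% and 12.3% of all genes. The 3 comparisons share libraries and are no independent evidence of each other. In sorted bulk samples, fewer cells that express a gene and less RNA per cell cannot be told apart.

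**Figure D1:**
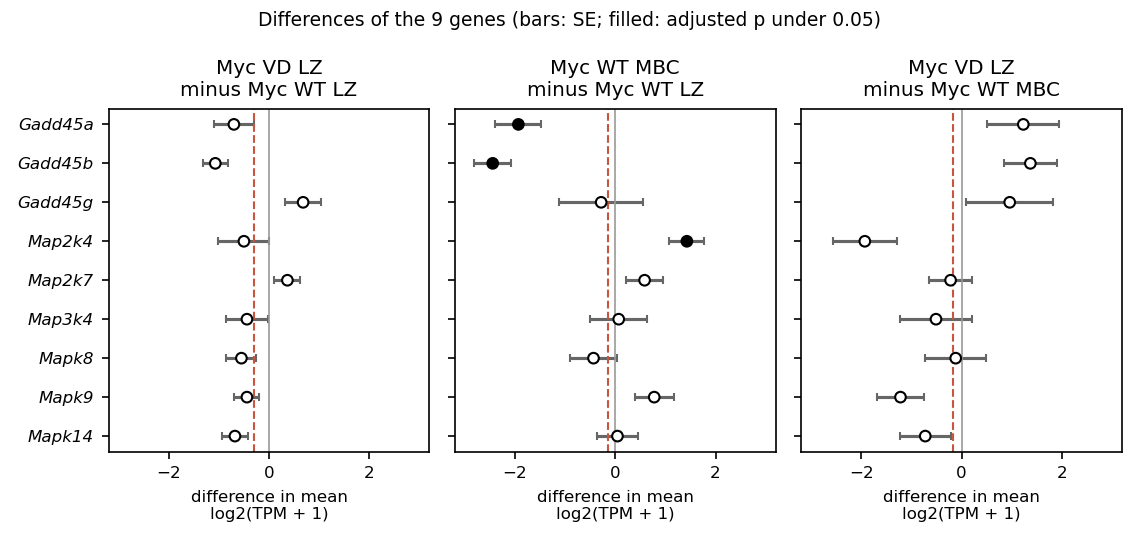
Difference in mean log2(TPM + 1) of the 9 genes in the 3 comparisons, on the x axis, with the standard error as bars. Filled points passed an adjusted p of 0.05 in limma and the dashed line is the median of all genes tested. Gadd45a, Gadd45b and Map2k4 are the filled points, all between MBCs and Myc WT LZ B cells.

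The bases upstream of the 3 GADD45 genes are given because Gadd45a and Gadd45b were both lower in MBCs while Gadd45g did not pass. They come from RefSeq on GRCm38.p6 and stop where the Ensembl gene begins. The window of 250 bases before the RefSeq start was searched on both strands for CACGTG (the E-box, the letters that dimers of MYC and MAX are known to bind), TGANTCA (AP-1), TGACGTCA (CRE), GGGCGG (SP1), CCAAT, and the NF-κB and p53 decamer patterns by name. Capitals mark CACGTG and CCAAT in either orientation.
Gadd45a, chr6:67037458-67037657, minus strand: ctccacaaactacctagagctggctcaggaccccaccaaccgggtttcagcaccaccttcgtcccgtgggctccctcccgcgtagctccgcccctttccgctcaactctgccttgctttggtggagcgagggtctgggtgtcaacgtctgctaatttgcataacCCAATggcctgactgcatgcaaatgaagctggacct
Gadd45b, chr10:80929841-80930072, plus strand: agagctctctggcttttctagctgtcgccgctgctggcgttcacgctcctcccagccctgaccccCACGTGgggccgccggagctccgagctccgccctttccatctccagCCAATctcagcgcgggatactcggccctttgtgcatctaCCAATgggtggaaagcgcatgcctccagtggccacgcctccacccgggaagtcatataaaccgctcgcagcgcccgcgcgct
Gadd45g, chr13:51846425-51846674, plus strand: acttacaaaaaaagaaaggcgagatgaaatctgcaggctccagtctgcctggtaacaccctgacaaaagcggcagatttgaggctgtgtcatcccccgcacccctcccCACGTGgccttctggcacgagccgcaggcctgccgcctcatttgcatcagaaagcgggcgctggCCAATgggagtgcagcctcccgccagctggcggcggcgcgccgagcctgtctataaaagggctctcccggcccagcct
The windows of Gadd45b and Gadd45g each held 1 CACGTG, 185 to 180 and 142 to 137 bases before the start, and that of Gadd45a held none, beside 6.02% of 32851 promoters with this motif. All 3 held CCAAT, with 2 copies for Gadd45b and 1 for each of the others, as did 33.9% of promoters. SP1 letters stood in the windows of Gadd45a and Gadd45b (32.7% of promoters), and a p53 decamer stood 40 to 31 bases before the RefSeq start of Gadd45a (7.13% of promoters), in bases that the Ensembl gene includes and that are not printed. None of the 3 windows held the AP-1, CRE or NF-κB pattern, which 6.75%, 1.55% and 7.25% of promoters held. Both starts of Map2k4 lay in windows without CACGTG, AP-1, CRE, SP1, NF-κB or p53 letters. These are matches of letters and no measured binding.

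Gadd45b (ENSMUSG00000015312, chromosome 10, 80930073 to 80932204, plus strand) was the most abundant GADD45 RNA of LZ B cells on the TPM scale, which is per transcript length. It was at 48.3, 49.4, 49.2 and 39.4 TPM in Myc WT LZ of mice 1 to 4, at 26.1, 19.4, 27.4 and 15.5 TPM in Myc V394D LZ of mice 5 to 8, and at 12.3, 7.93 and 4.57 TPM in MBCs of mice 1, 3 and 4. The groups did not overlap at any step, with every Myc V394D value under every Myc WT LZ value and above every MBC value. Of the 9 genes, 2 (Gadd45a and Gadd45b) lay wholly lower in MBCs than in Myc WT LZ and 1 (Map2k4) wholly higher. Among all 13245 genes tested, 14.4% lay wholly lower and 11.8% wholly higher. From Myc WT LZ to MBCs the mean fell from 46.6 ± 4.81 (SD, n = 4) to 8.26 ± 3.86 TPM (SD, n = 3), a log2 difference of -2.44 ± 0.38 (SE; adjusted p = 0.00725 in limma). The call held without any single library, with an adjusted p of up to 0.0395, while with the mouse as a replicate block, on the 3 mice that gave both populations, the log2 difference was -2.41 and the adjusted p 0.0747. Within each mouse the MBCs were lower, by log2 differences of -1.89, -2.49 and -2.86 in mice 1, 3 and 4.

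Between genotypes Gadd45b had a log2 difference of -1.07 ± 0.25 (SE), with 22.1 ± 5.66 TPM in Myc V394D LZ (SD, n = 4). It did not pass adjustment over all genes (adjusted p = 0.108 in limma), and the two-sided exact permutation test gave p = 0.0286, the smallest that 4 against 4 mice allow. The summed level of 5 plasma cell genes was also without overlap between the genotypes, 133.8 to 220.6 TPM in Myc V394D LZ and 229.4 to 381.4 TPM in Myc WT LZ (193 to 402 TPM in MBCs). Jchain gave most of it in the LZ libraries, while Sdc1, the gene of CD138, was at 0 to 0.12 TPM in Myc WT LZ and at 0 in all Myc V394D LZ but mouse 7 (6.05 TPM), and the part of this sum in the lower values of Gadd45b and Mapk14 was not tested. The log2 difference of Gadd45b lay 0.76 below the median difference of all genes and was -0.74 after median ratio scaling. Gadd45b and Mapk14 were the 2 of 9 genes whose Myc V394D values all lay under the Myc WT values, beside 9.16% of all genes tested, and none of the 9 lay wholly above, beside 0.816%. Without the library of mouse 5 the adjusted p of Gadd45b was 0.0475 in limma, with 254 genes called over the table in place of 6. Against MBCs, Myc V394D LZ were higher by a log2 difference of 1.37 ± 0.52 (SE; adjusted p = 0.177 in limma; exact permutation p = 0.0286).

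Gadd45a (ENSMUSG00000036390, chromosome 6, 67035096 to 67037457, minus strand), the classical DNA damage and p53 target of the family, was even among Myc WT LZ libraries, at 7.18, 7.86, 7.35 and 6.84 TPM. MBCs had 0.63, 1.38 and 1.65 TPM, all under every LZ value of either genotype. Of all genes tested, 14.4% lay wholly lower in MBCs than in Myc WT LZ. The log2 difference between MBCs and Myc WT LZ was -1.93 ± 0.46 (SE; adjusted p = 0.0338 in limma), from 7.31 ± 0.43 (SD, n = 4) to 1.22 ± 0.53 TPM (SD, n = 3), and a scale with 1 TPM added understates a change at such levels. Leaving out any of the 4 Myc WT LZ libraries ended the call, with adjusted p of 0.103, 0.139, 0.130 and 0.107 without mice 1 to 4, at log2 differences of -1.96 to -1.90. The replicate block by mouse also ended it, with a log2 difference of -1.90 and adjusted p = 0.306 in limma.

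In Myc V394D LZ the values of Gadd45a were 4.82, 1.78, 3.2 and 9.02 TPM. Mouse 8 lay above and the other 3 below every Myc WT LZ library, so that the spread was 3.13 TPM (SD, n = 4) against 0.43 TPM in Myc WT. The log2 difference between the genotypes was -0.70 with a 95% interval of -1.58 to 0.18 (limma). It was -1.02 without mouse 8, -0.41 without mouse 6, and -0.41 with median ratio scaling and -0.34 with quantile normalization of all libraries. Mouse 8 was also the library with the largest share of ribosomal RNA.

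Gadd45g (ENSMUSG00000021453, chromosome 13, 51846678 to 51848468, plus strand), a cytokine-induced member of the family, had another order of group means, with overlap between all groups. It was at 3.0, 5.44, 4.81 and 6.07 TPM in Myc WT LZ and at 12.1, 5.95, 5.93 and 10.1 TPM in Myc V394D LZ. Mice 5 and 8 lay above all Myc WT mice and mice 6 and 7 within their range. Between the genotypes its log2 difference was 0.68 ± 0.35 (SE; 95% interval -0.09 to 1.45; adjusted p = 0.355 in limma), and 0.97 after median ratio scaling, 1.02 without ribosomal RNA genes and 0.96 after quantile normalization, none of which passed. MBCs had 11.2 TPM in mouse 3 and 7.45 TPM in mouse 4, and the gene was listed at 0 in mouse 1, whose library also listed 282 abundant genes at 0. Both other MBC values lay above every Myc WT LZ value, and the log2 difference to Myc WT LZ was -0.28 with mouse 1 and 0.83 without it, neither of which passed (adjusted p = 0.865 and 0.258 in limma).

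The sum of the 3 GADD45 genes was 58.7 ± 4.62 TPM in Myc WT LZ (SD, n = 4), 35.3 ± 6.54 TPM in Myc V394D LZ (SD, n = 4) and 15.7 ± 4.21 TPM in MBCs (SD, n = 3), with ranges of 52.3 to 62.7, 27.1 to 43.0 and 12.9 to 20.6 TPM that did not overlap. The shares of the 3 genes in the sum do not change when a library is multiplied by a factor. Gadd45b took 82.6, 78.8, 80.2 and 75.3% of it in Myc WT LZ and 60.7, 71.5, 75.0 and 44.7% in Myc V394D LZ, so all Myc V394D shares lay below all Myc WT shares, with mouse 7 close to mouse 4. Gadd45g took 5.13, 8.68, 7.84 and 11.6% in Myc WT LZ and 28.1, 21.9, 16.2 and 29.2% in Myc V394D LZ, again without overlap. For both shares the exact permutation test, two-sided, gave p = 0.0286 and, adjusted over 21 ratios and comparisons, p = 0.2, which is the lowest adjusted value among the 21. The shares together make up the whole sum, so a lower share of Gadd45b leaves more to the other genes. These are therefore not separate results, and the TPM of Gadd45g overlapped between the genotypes. In MBCs the shares fell apart between mice, with Gadd45b at 95.1% in mouse 1 and 38.6 and 33.4% in mice 3 and 4, where Gadd45g took 54.7 and 54.5%.

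**Figure D2:**
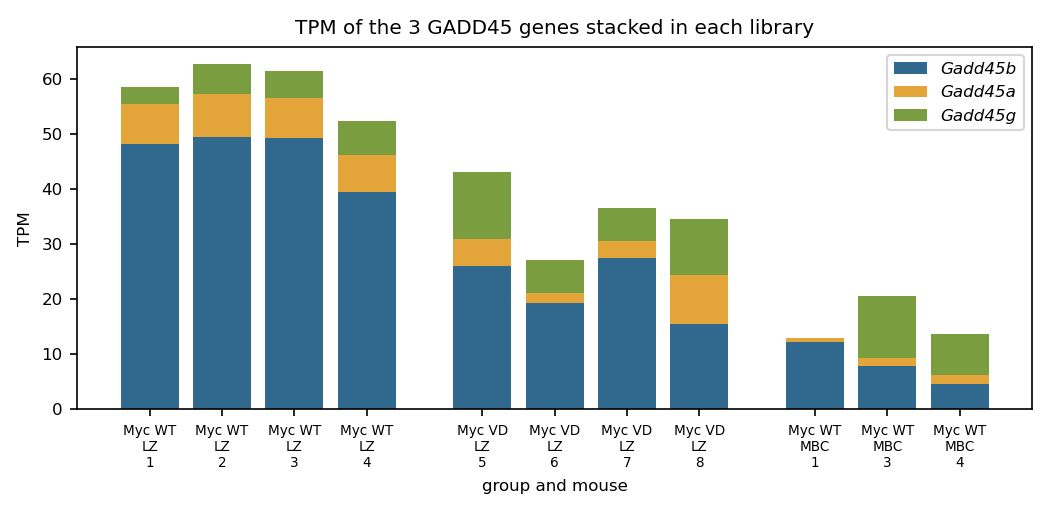
TPM of Gadd45b, Gadd45a and Gadd45g on the y axis, stacked for each of the 11 libraries, which are given by group and mouse on the x axis. The stacks of Myc WT LZ reach 52.3 to 62.7 TPM, those of Myc V394D LZ 27.1 to 43.0 TPM and those of MBCs 12.9 to 20.6 TPM, and Gadd45g is the largest part in MBCs of mice 3 and 4.

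Map3k4 (ENSMUSG00000014426, chromosome 17, 12227621 to 12318796, minus strand), the kinase that GADD45 proteins activate, overlapped between all groups. It was at 11.9, 6.88, 9.49 and 5.03 TPM in Myc WT LZ, at 12.1, 3.77, 3.26 and 6.11 TPM in Myc V394D LZ and at 18.1, 3.67 and 8.30 TPM in MBCs. The MBCs of mouse 1 were the highest of the 11 libraries and Myc V394D LZ of mouse 7 the lowest. Between the genotypes the log2 difference was -0.44 (95% interval -1.36 to 0.48, limma), with -0.77 without mouse 5, -0.23 without mouse 7 and -0.15 after median ratio scaling. It was 0.07 between MBCs and Myc WT LZ (-1.23 to 1.37) and -0.51 between Myc V394D LZ and MBCs (-2.07 to 1.05).

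Map2k4 (ENSMUSG00000033352, chromosome 11, 65688243 to 65788297, minus strand), the gene of MKK4, which acts on both JNK and p38, was higher in MBCs. It was at 17.5, 24.3, 27.3 and 23.6 TPM in Myc WT LZ and at 56.9, 98.1 and 45.3 TPM in MBCs of mice 1, 3 and 4. Every MBC value lay above every Myc WT LZ value, as was so for 11.8% of all genes tested. The mean rose from 23.2 ± 4.11 (SD, n = 4) to 66.8 ± 27.7 TPM (SD, n = 3), a log2 difference of 1.43 ± 0.35 (SE; adjusted p = 0.0368 in limma). Within mice 1, 3 and 4 the log2 differences were 1.65, 1.81 and 0.91. The call ended without any of the Myc WT LZ libraries, with adjusted p of 0.105, 0.109, 0.0925 and 0.0937 without mice 1 to 4, and without MBCs of mouse 1 (0.0512), at log2 differences of 1.31 to 1.51. With the mouse as a replicate block the log2 difference was 1.46 and the adjusted p 0.166 in limma. The call also ended without a filter (adjusted p = 0.0627 in limma), without a trend (0.0625) and with all 3 groups in 1 fit (0.112). Without the MBCs of mouse 3 the log2 difference was 1.12, without those of mouse 4 it was 1.67, and the call held in both fits. These libraries were left out singly, and the part of RNA of other cells in this difference was not tested.

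In Myc V394D LZ, Map2k4 was at 10.0, 10.3 and 9.60 TPM in mice 5, 7 and 8 and at 60.9 TPM in mouse 6. The first 3 lay below every Myc WT LZ library and mouse 6 within the range of MBCs. The log2 difference between the genotypes was -0.50 with mouse 6 and -1.13 without it, and neither passed (adjusted p = 0.637 and 0.111 in limma). After median ratio scaling of all libraries it was -0.17. Between Myc V394D LZ and MBCs the log2 difference of -1.93 ± 0.64 (SE) had an adjusted p of 0.125, and without mouse 6 it was -2.55 with an adjusted p of 0.0303 in limma.

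Map2k7 (ENSMUSG00000002948, chromosome 8, 4238740 to 4247897, plus strand), the kinase that GADD45B blocks, was at 24.9, 15.7, 19.1 and 14.5 TPM in Myc WT LZ, at 19.2, 28.3, 26.3 and 22.2 TPM in Myc V394D LZ and at 30.6, 37.5 and 18.6 TPM in MBCs. The groups overlapped throughout. Against Myc WT LZ the log2 difference was 0.37 in Myc V394D LZ (95% interval -0.20 to 0.93, limma) and 0.59 in MBCs (-0.26 to 1.43). The former was 0.70 after median ratio scaling, 0.68 without ribosomal RNA genes and 0.63 after quantile normalization, and none of these passed. The latter was 0.38 without MBCs of mouse 3. Map2k7 and Gadd45g were the 2 of the 9 genes whose log2 difference between the genotypes lay above the median difference of all genes (-0.31).

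The balance of the 2 MAP kinase kinases lay further toward Map2k4 in MBCs than in Myc WT LZ, a difference that did not pass adjustment. The log2 ratio of Map2k7 to Map2k4 was 0.48, -0.60, -0.49 and -0.66 in Myc WT LZ and -0.88, -1.37 and -1.24 in MBCs, with every MBC value lower. The difference of -0.84 had an exact permutation p of 0.0286, two-sided, and 0.2 adjusted over the 21. In Myc V394D LZ the ratio was 0.88, 1.28 and 1.13 in mice 5, 7 and 8, above every Myc WT value, and -1.08 in mouse 6, below every Myc WT value.

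Mapk8 (ENSMUSG00000021936, chromosome 14, 33377898 to 33447158, minus strand), the gene of JNK1, was the lower of the 2 JNK genes in each of the 11 libraries on the TPM scale. It was at 8.04, 10.8, 13.1 and 9.29 TPM in Myc WT LZ, at 6.82, 5.24, 8.84 and 6.04 TPM in Myc V394D LZ and at 4.95, 13.0 and 5.76 TPM in MBCs. One Myc V394D value, that of mouse 7, lay above the lowest Myc WT value. The log2 difference between the genotypes was -0.55 ± 0.30 (SE; adjusted p = 0.376 in limma), and between MBCs and Myc WT LZ it was -0.43 with a 95% interval of -1.48 to 0.62. The former was -0.24 after median ratio scaling, and the latter -0.20 without MBCs of mouse 1 and -0.82 without those of mouse 3.

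Mapk9 (ENSMUSG00000020366, chromosome 11, 49846751 to 49886421, plus strand), the gene of JNK2, was at 27.1, 22.8, 23.3 and 17.8 TPM in Myc WT LZ, at 13.7, 20.0, 14.8 and 17.5 TPM in Myc V394D LZ and at 33.9, 68.2 and 26 TPM in MBCs. MBCs lay above every Myc V394D library and, with mouse 4 just under mouse 1 of Myc WT LZ, overlapped Myc WT. Against Myc V394D LZ they differed by a log2 difference of -1.22 ± 0.46 (SE, Myc V394D LZ minus MBCs; adjusted p = 0.177 in limma; exact permutation p = 0.0286). Mapk9 was the 1 of 9 genes with Myc V394D LZ wholly under MBCs, beside 12.5% of all genes, and Gadd45a and Gadd45b the 2 wholly above, beside 5.99%. The log2 difference between MBCs and Myc WT LZ was 0.78 ± 0.39 (SE; adjusted p = 0.234 in limma), with 0.39 without MBCs of mouse 3, the library with the high erythroid sum, and 1.07 without those of mouse 4. Between the genotypes it was -0.44, and -0.11 after median ratio scaling.

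The log2 ratio of Mapk9 to Mapk8 was higher in every MBC library than in every LZ library, though the differences did not pass. It was 2.55, 2.30 and 2.00 in MBCs of mice 1, 3 and 4, against 0.78 to 1.64 in Myc WT LZ and 0.68 to 1.75 in Myc V394D LZ. The differences of 1.21 to Myc WT LZ and 1.10 to Myc V394D LZ each had an exact permutation p of 0.0571, two-sided, and p = 0.2 after adjustment. Between the LZ groups the ratio differed by 0.11 (exact permutation p = 0.771).

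Mapk14 (ENSMUSG00000053436, chromosome 17, 28691329 to 28748406, plus strand), the gene of p38 alpha, was at 27.6, 23.9, 29.2 and 21.1 TPM in Myc WT LZ and at 17.9, 14.0, 11.7 and 19.1 TPM in Myc V394D LZ. The genotypes did not overlap, with mouse 8 the nearest to Myc WT. The log2 difference was -0.68 ± 0.25 (SE; adjusted p = 0.221 in limma; exact permutation p = 0.0286), which lay 0.37 below the median of all genes and was -0.35 after median ratio scaling. MBCs had 40.8, 13.4 and 31.9 TPM, with mouse 3 below and mice 1 and 4 above every Myc WT LZ library, and a log2 difference to Myc WT LZ of 0.04 (95% interval -0.89 to 0.98, limma).

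**Figure D3:**
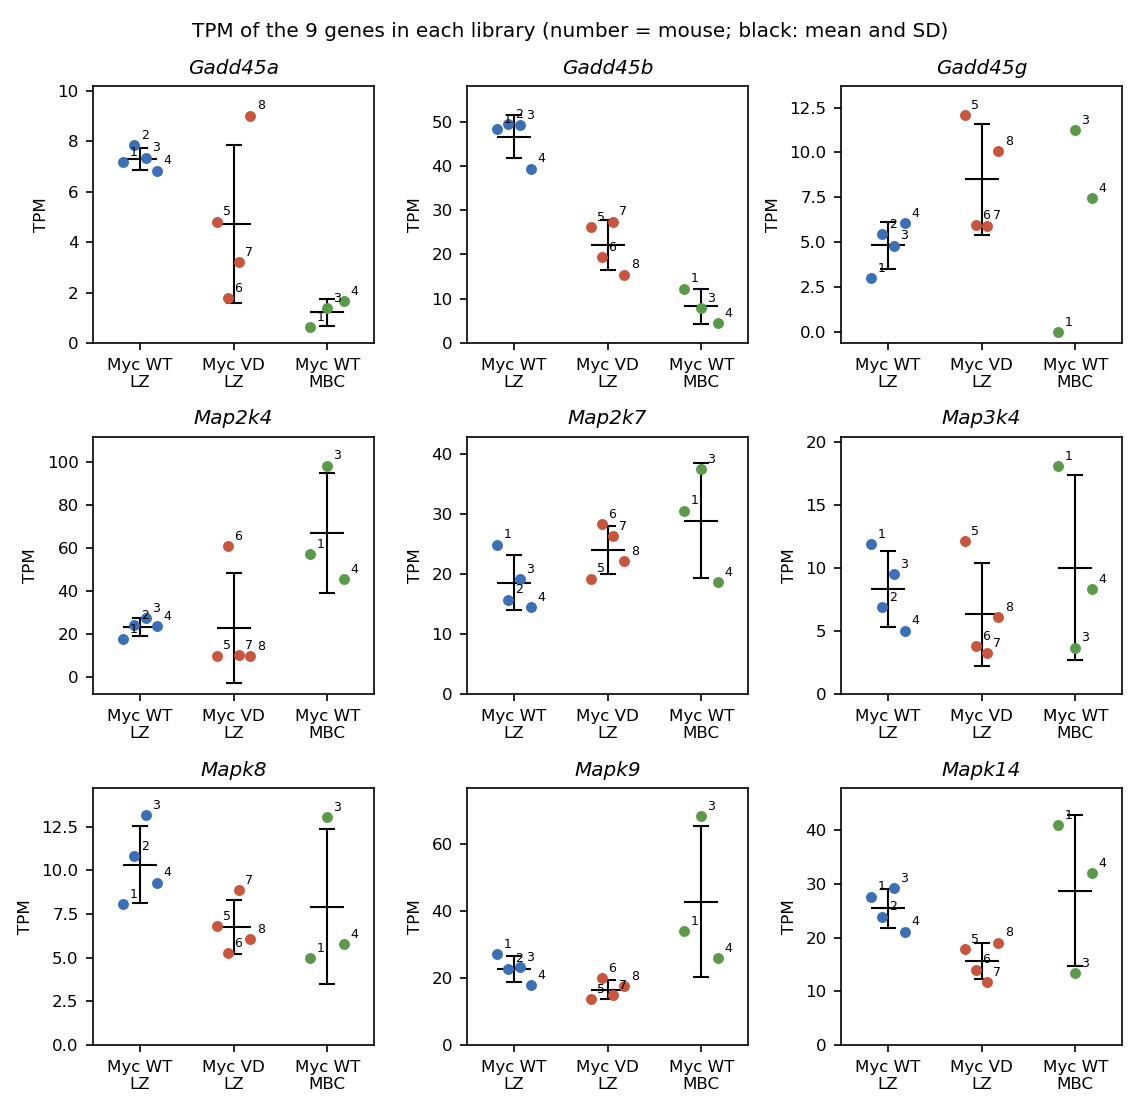
TPM of the 9 genes on the y axis of each panel, with 1 point per library numbered by mouse, and mean and SD in black, for Myc WT LZ (n = 4), Myc V394D LZ (n = 4, written Myc VD) and MBCs (n = 3). Gadd45b steps down from Myc WT LZ over Myc V394D LZ to MBCs without overlap, and Map2k4 of mouse 6 stands apart at 60.9 TPM. No mean is drawn for Gadd45g in MBCs, where it is listed at 0 in mouse 1.

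Around the 9 genes, 78 further genes of the cascade were grouped by role, of which 70 were tested between MBCs and Myc WT LZ. There 4 were higher and 5 lower at the adjusted threshold, 5.71% and 7.14% of those tested and so near the 4.17% and 5.04% of all genes, with a median log2 difference of -0.05 beside -0.14 over all genes. Between the genotypes none of 69 tested passed in limma, with a median of -0.20 beside -0.31. Of all genes, 2180 had an unadjusted p under 0.05 in this comparison.

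The largest rise among these 70 genes was in Map3k1, the gene of MEKK1, a MAP kinase kinase kinase that feeds MKK4 and JNK. It was at 16, 13.5, 17.9 and 17.4 TPM in Myc WT LZ, at 20.3, 16.6, 16.3 and 15.9 TPM in Myc V394D LZ and at 121.6, 190.8 and 115 TPM in MBCs. The log2 difference between MBCs and Myc WT LZ was 3.03 ± 0.30 (SE; adjusted p = 0.00157 in limma), and it passed without any single library and with the mouse as a replicate block (2.95, adjusted p = 0.0128). Myc V394D LZ was lower than MBCs by a log2 difference of -2.94 (adjusted p = 0.00179 in limma), again without any single library, and differed from Myc WT LZ by 0.09.

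Of the 19 tested genes of upstream kinases and their binding partners (Tab1, Tab2 and Tab3), Map4k4 was the other one that rose, from 34.9 ± 1.86 (SD, n = 4) to 82.6 ± 12.4 TPM (SD, n = 3; adjusted p = 0.0218 in limma). Map4k1 and Map4k2, which had the highest means of this list over all 11 libraries together, were at means of 143 and 63.4 TPM in Myc WT LZ and of 128 and 126 TPM in MBCs, and did not pass. None of 3 tested genes of the other stress kinases passed, with Map2k3 at 15.7 TPM and Mapk11 at 12.4 TPM on average in Myc WT LZ, nor any of 7 genes of the ERK arm, where Map2k1 was at 51.3 TPM.

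Of 15 substrates, Jun, the AP-1 subunit that JNK phosphorylates, rose in MBCs. It was at 6.75, 4.63, 3.86 and 4.26 TPM in Myc WT LZ, at 5.33, 10.8, 9.83 and 15.7 TPM in Myc V394D LZ and at 25.3, 33.7 and 21.3 TPM in MBCs. MBCs lay above all LZ libraries, with a log2 difference to Myc WT LZ of 2.24 ± 0.40 (SE; adjusted p = 0.0129 in limma). In Myc V394D LZ, 3 of 4 values lay above Myc WT LZ, with a log2 difference of 0.90 that did not pass (adjusted p = 0.242 in limma). The substrates with the highest means over all libraries, Mef2c and Atf2, at 524 and 91.6 TPM in Myc WT LZ, did not pass in any comparison. Of 4 scaffold genes tested, Flna, encoding the actin crosslinker filamin A, rose from 48.4 ± 11.7 (SD, n = 4) to 164.8 ± 67.5 TPM (SD, n = 3; adjusted p = 0.0218 in limma), and was lower in Myc V394D LZ than in MBCs (log2 difference -1.56, adjusted p = 0.0469). Spag9 was at 49.9 TPM in Myc WT LZ and 80.7 TPM in MBCs and did not pass.

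Of 10 phosphatases tested, Dusp10, which dephosphorylates JNK and p38, fell from 37.7 ± 3.72 (SD, n = 4) to 14.4 ± 5.35 TPM (SD, n = 3; adjusted p = 0.0392 in limma). Dusp2, at 45.4 TPM in Myc WT LZ and 22 TPM in MBCs, had an adjusted p of 0.0552, and Dusp1 was at 29.9 and 47.0 TPM. Among 12 partners and inducers of GADD45 proteins, Cdk1, Ccnb1, Pcna and Atf4 fell in MBCs. Cdk1, the mitotic kinase, was at 71.8 to 128 TPM in Myc WT LZ and at 4.49, 1.65 and 45.7 TPM in MBCs, a log2 difference of -3.47 (adjusted p = 0.0358 in limma). Pcna, the replication clamp, fell from 336 ± 52.6 (SD, n = 4) to 99.7 ± 7.55 TPM (SD, n = 3; adjusted p = 0.00285 in limma), and Ccnb1 (cyclin B1) and Atf4 (a stress response factor) by 1.95 and 2.00 on the log2 scale. MBCs also had a lower summed level of 7 germinal center genes with Mki67 among them, 516 to 644 TPM against 1138 to 1570 TPM in Myc WT LZ, and its part in these differences was not tested. Trp53, the gene of p53, was at 124 TPM in Myc WT LZ and 163 TPM in MBCs and did not pass.

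With the mouse as a replicate block, Map3k1 and Pcna (log2 difference -1.67, adjusted p = 0.0385 in limma) passed and the other 7 of these 9 genes did not, at adjusted p of 0.0546 for Flna, 0.0674 for Cdk1, 0.117 for Atf4, 0.143 for Jun, 0.146 for Ccnb1, 0.186 for Map4k4 and 0.239 for Dusp10. Map3k1 and Pcna also passed without any single library, Jun in 5 of 7 such fits, Flna and Map4k4 in 3, Atf4, Ccnb1 and Dusp10 in 2 and Cdk1 in 1. The call of Jun ended without Myc WT LZ of mouse 2 or 3, and those of Flna and Map4k4 without any of the 4 Myc WT LZ libraries. Dusp10 and Atf4 were lost without any of these 4 or the MBCs of mouse 1, Ccnb1 without Myc WT LZ of mouse 1, 2 or 3 or MBCs of mouse 1 or 3, and Cdk1 without any library but the MBCs of mouse 4. The lower Flna of Myc V394D LZ against MBCs passed without MBCs of mouse 1 and in none of the other 6 such fits, nor with 0.1 TPM added (adjusted p = 0.0574 in limma), without a filter (0.102), without a trend (0.150), with median ratio scaling (0.107), without ribosomal RNA genes (0.125) or with quantile normalization (0.140). Between MBCs and Myc WT LZ, adjusted p in limma without a filter were 0.0508 for Flna, 0.0567 for Dusp10, 0.0653 for Atf4, 0.0846 for Ccnb1 and 0.0922 for Cdk1. Without a trend they were 0.0503 for Atf4, 0.0530 for Map4k4, 0.0559 for Dusp10 and Cdk1 and 0.0624 for Ccnb1, and with 0.1 TPM added that of Cdk1 was 0.0509.

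**Figure D4:**
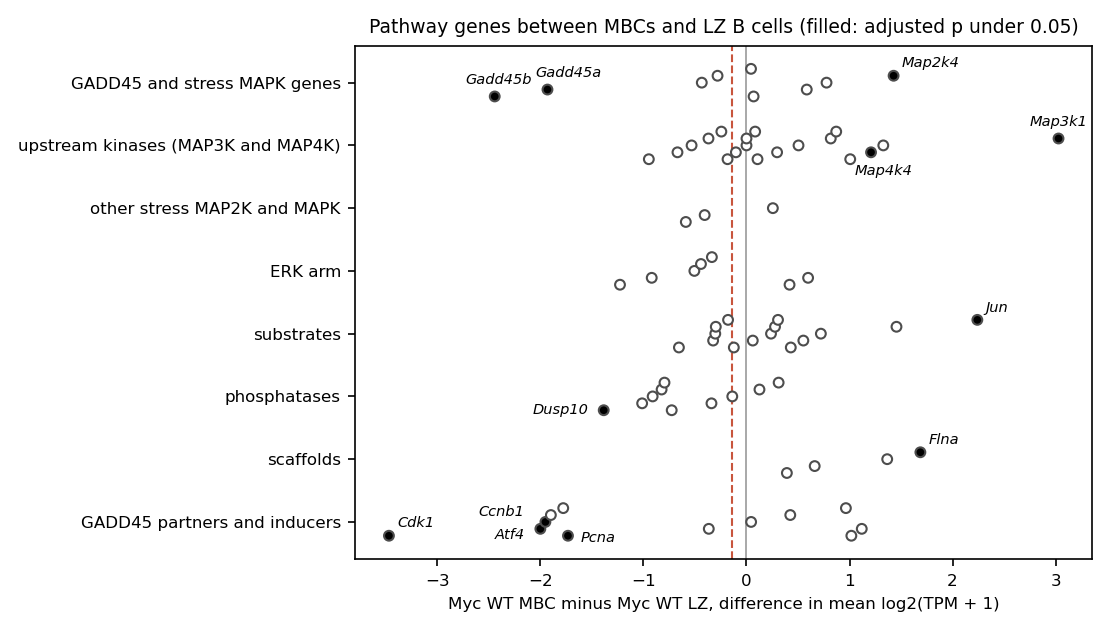
Difference in mean log2(TPM + 1) between MBCs and Myc WT LZ B cells on the x axis for the 9 genes and the tested genes of 7 further lists, 1 row per list. Filled, named points passed an adjusted p of 0.05 in limma, and the dashed line is the median of all genes at -0.14. Map3k1 at 3.03 and Jun at 2.24 lie farthest to the right and Cdk1 at -3.47 farthest to the left.

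As a description, genes were ranked by the Pearson correlation of log2(TPM + 1) with a GADD45 gene over the 11 libraries, among 9222 genes that averaged 5 TPM or more. These points share groups and library composition, so the correlations carry no test. Gadd45a was most like Atp11a (0.94), Pif1 (0.94) and Tmco6 (0.94). Gadd45b was most like Mis18a (0.94), Mif (0.94) and Ak6 (0.94). Gadd45g, whose group means had another order but whose groups all overlapped, was most like Fos (0.91), Asb6 (0.90) and Gm14295 (0.90). Map2k7 was most like Chd3 (0.88), Cdc14a (0.87) and Gm17195 (0.84).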

How the data were processed

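RNA-seq libraries of the sorted populations were analysed from 1 table of 48795 Ensembl genes in 11 libraries. By the submitters' processing notes and the study's methods, the authors aligned reads with STAR 2.5.2a, quantified genes with RSEM 1.3.0 on GRCm38 with strand taken into account, and deposited the TPM, which hold 2 decimals. TPM keep no depth, so no counting error can be given and precision rests on the spread between mice. Symbols, positions and the 356 ribosomal RNA genes came from GENCODE M21, which names 48435 of the genes.

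Pairs of groups were compared with limma 3.58.1 (R 4.3.3, trended prior variance) after adding 1 TPM and taking log2, two-sided, over genes that averaged 1 TPM or more in the libraries used, and p-values were adjusted by Benjamini-Hochberg over all of these (threshold 0.05). Differences on this scale understate changes of low genes. Single genes and ratios within a library were compared by two-sided exact permutation over 70 or 35 groupings (Python 3.11.15). Each library is 1 mouse and 1 population. MBCs and LZ B cells with the same mouse code came from the same animal, and the deviations of such pairs from their group means correlated with r = 0.00711, 0.0114 and -0.0463 for mice 1, 3 and 4. The fits were also run on simulated data with independent noise. The planted differences were larger than any difference of the 9 genes between the genotypes, so this run does not show how well smaller ones are found.

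The 9 genes, the lists of the cascade and the tests were chosen with earlier results of these data known. Of each list, the genes past the adjusted threshold (at most 8) and the 2 of highest mean TPM were named (1 of them is not reported here), and for Gadd45a, Gadd45b, Gadd45g and Map2k7 the 3 genes most like them. Alternatives changed the added value (0.1 TPM), the filter (none, or 5 TPM), the scaling (median ratio, ribosomal RNA genes taken out, quantile), the prior variance (no trend) and the samples (all 3 groups together, mouse as a replicate block, or 1 library left out). Promoters were read from RefSeq (GRCm38.p6), where all 9 genes were found. Protein sequences were not used here.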

Additional observations from a re-analysis of the deposited data

Results flagged for a closer look

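In 32 groups of 4 libraries (the 9 genes and 7 ratios in each LZ group), 5 values stood apart, with a gap to the nearest library larger, as a part of the group's range, than Dixon's critical value at 95%, where chance alone flags about 1 in 20 groups. Gadd45b of mouse 4 was at 39.4 TPM in Myc WT LZ, under the other 3 libraries. Map2k4 of mouse 6 was at 60.88 TPM in Myc V394D LZ, above the other 3. The log2 ratio of Map2k7 to Map2k4 was 0.484 in mouse 1 of Myc WT LZ, above its group, and -1.08 in mouse 6 of Myc V394D LZ, below its group. The log2 ratio of Mapk14 to Map3k4 was 0.523 in mouse 5 of Myc V394D LZ, below its group. Mouse 6 had the fewest genes above 0 TPM among LZ libraries, 13169, and its part in these values was not tested.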

How the results depend on the processing

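TPM without depth, 3 or 4 mice a group and uneven MBC libraries limit what can be called. Under other settings 379 values of the 9 genes kept their side of the threshold and of 0, 5 came to pass, 18 no longer passed and 19 changed direction. Only Gadd45a, Gadd45b and Map2k4, between MBCs and Myc WT LZ, passed in the fits used above, so all 18 losses were of these calls. Most of the 379 were values that did not pass to begin with, and they do not show how firm a call is. Between Myc V394D and Myc WT LZ, 6 genes of the whole table were called, against 0 with 0.1 TPM added, 0 without a filter, 0 with median ratio scaling, 0 with all 3 groups in 1 fit, 1 without ribosomal RNA genes and 15 at 5 TPM or more; the median of all genes moved from -0.31 to -0.01 with median ratio scaling and with quantile normalization and to -0.05 without ribosomal RNA genes. Between MBCs and Myc WT LZ, 1219 genes were called, against 608 without a filter and 248 under a replicate block by mouse, and the block left 0 members higher and 0 lower. Members called lower numbered 1, Gadd45b, with 0.1 TPM added, without a filter, with quantile normalization and at 5 TPM or more, where Gadd45a was not tested. Members called higher numbered 0 without a filter, without a trend and with 3 groups in 1 fit. Between Myc V394D LZ and MBCs, 509 genes were called, against 202 without a filter, 284 without a trend and 1578 with 3 groups in 1 fit, where 1 member was called higher (Gadd45b) and 2 lower (Map2k4 and Mapk9). The share of higher calls there was 34.97%, against 56.9%, 61.4% and 57.8% with median ratio scaling, without ribosomal RNA genes and with quantile normalization; for MBCs against Myc WT LZ it was 45.3%, and from 38.4 to 54.1% under the other settings that kept all libraries.

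No gene whose direction turned in a comparison passed there in any setting. Under other scalings, between MBCs and Myc WT LZ, Map3k4 was -0.016 and Mapk14 -0.042 without ribosomal RNA genes, and with quantile normalization Gadd45g was 0.042 and Mapk14 -0.016. Between Myc V394D LZ and MBCs, with median ratio scaling, without ribosomal RNA genes and with quantile normalization, Map2k7 was 0.076, 0.172 and 0.204 and Mapk8 0.142, 0.252 and 0.067. The causes were not tested.

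With 1 library left out at a time, called genes ran from 0 to 254 (the latter without mouse 5) between the genotypes, from 342 (without Myc WT LZ of mouse 2) to 2754 (without MBCs of mouse 4) between MBCs and Myc WT LZ and from 203 (without mouse 7) to 731 (without MBCs of mouse 4) between Myc V394D LZ and MBCs. Members called lower ran from 0 to 1, from 1 to 2 and from 0 to 1, and members called higher in MBCs from 0 to 1. Differences between MBCs and Myc WT LZ ran from -0.972 to 0.834 for Gadd45g, from -0.442 to 0.573 for Map3k4 and from -0.27 to 0.50 for Mapk14. Between Myc V394D LZ and MBCs they ran from -0.154 to 1.65 for Gadd45g, from -1.01 to 0.002 for Map3k4 and from -0.353 to 0.266 for Mapk8. The share of Gadd45b in the GADD45 sum differed by -20.2 to -10.1 points between the genotypes, and by -3.85 to 27.0 points between Myc V394D LZ and MBCs. That of Gadd45a ran from -3.63 to 2.89 points between the genotypes. The log2 ratio of Mapk9 to Mapk8 ran from -0.079 to 0.298 between the genotypes. That of Mapk14 to both JNK genes ran from -0.887 to 0.406 between MBCs and Myc WT LZ and from -0.599 to 0.694 between Myc V394D LZ and MBCs. That of Mapk14 to Map3k4 ran from -0.373 to 0.0243, from -0.173 to 0.172 and from -0.412 to 0.0492 in the 3 comparisons. The replicate block changed the calls given with the results and no other call of the 9 genes.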
